A study of Mus musculus with 10 samples.

Results

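The genes described here are the core of the TGF-beta pathway: the ligands Tgfb1, Tgfb2 and Tgfb3, the receptors Tgfbr1, Tgfbr2 and Tgfbr3, and the signal transducers Smad2, Smad3, Smad4 and Smad7. They were taken by name, 10 of the 20142 genes listed in either of 2 tables of RNA-seq values, and no measured value entered the rule. The study deleted Rnf20, which encodes a histone ubiquitin ligase, in the Sertoli cells of the mouse testis, the somatic cells that nurse the germ cells inside the seminiferous tubules. The table of young mice held Sertoli cells taken at day 7 after birth, with 2 samples from Rnf20 Flox/Flox mice, which the labels call WT, and 2 from Amh-Rnf20-/- mice. Their age and material follow the sample titles and the study's methods. A submitters' note on how the material was raised speaks of adults throughout, the day 7 samples included, and this conflict was not resolved. Both day 7 groups carry the floxed Rnf20 alleles, and the Amh-Rnf20-/- mice also carry Cre recombinase driven by the Amh promoter, which is active in Sertoli cells. The day 7 cells had been dissociated from the testis and kept as attached cells in serum-containing medium before RNA was taken. The other table held whole adult testis, with 3 samples labelled WT and 3 labelled RNF20 conditional knockout, and the exact age and the floxed alleles of these mice are not given in the sources used here.

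TGF-beta ligands are secreted in a latent form that binding proteins hold in the matrix. Once released, a ligand binds TGFBR2, which recruits and phosphorylates TGFBR1, while TGFBR3, also called betaglycan, presents ligand, TGF-beta 2 above all, to the signalling receptors. TGFBR1 then phosphorylates SMAD2 and SMAD3, which enter the nucleus with SMAD4, and SMAD7 is induced by the pathway and shuts the receptors down. In the testis the pathway is known for its part in the dynamics of the blood-testis barrier, in peritubular and Leydig cells and in immune tolerance.

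Promoter sequences of 2 ligands and 2 receptors are given here, so that their start sites can be set beside their values. RefSeq promoters on GRCm38.p6 were found for 5 of the 10 members, Tgfb1, Tgfb2, Tgfbr1, Tgfbr2 and Smad3, and the 250 bases before the start are printed 5′ to 3′ on the gene's own strand. Capitals mark 4 motifs, each searched on both strands, so that one lying on the other strand is printed as its reverse complement. The motifs were TATAAA, the TATA box. They were also CACGTG, an E-box. The GC box was GGGCGG and the SMAD-binding element was the short run CAGAC, none of which overlapped another in these windows. The windows are chr7:25686752-25687001 on the plus strand for Tgfb1, chr1:186705990-186706239 on the minus strand for Tgfb2, chr4:47352972-47353221 on the plus strand for Tgfbr1, the first of 2 start sites listed for it, and chr9:116175364-116175613 on the minus strand for Tgfbr2. The Tgfb2 window lies inside the gene as its longest annotated transcript spans it.
Tgfb1: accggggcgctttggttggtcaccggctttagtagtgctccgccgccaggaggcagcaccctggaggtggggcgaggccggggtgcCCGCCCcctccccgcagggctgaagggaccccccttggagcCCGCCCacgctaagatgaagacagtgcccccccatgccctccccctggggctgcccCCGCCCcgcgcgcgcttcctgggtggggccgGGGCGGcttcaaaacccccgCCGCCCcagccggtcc
Tgfb2: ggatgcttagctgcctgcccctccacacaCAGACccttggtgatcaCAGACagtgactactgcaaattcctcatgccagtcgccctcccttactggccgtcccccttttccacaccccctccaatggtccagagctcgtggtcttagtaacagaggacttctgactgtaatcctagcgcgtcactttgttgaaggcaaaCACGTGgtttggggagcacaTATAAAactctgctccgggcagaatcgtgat
Tgfbr1: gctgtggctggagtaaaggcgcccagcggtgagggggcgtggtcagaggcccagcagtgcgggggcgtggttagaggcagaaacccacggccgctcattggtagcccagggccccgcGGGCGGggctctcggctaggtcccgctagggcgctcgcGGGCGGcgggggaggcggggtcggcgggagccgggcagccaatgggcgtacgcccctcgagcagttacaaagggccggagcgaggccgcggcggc
Tgfbr2: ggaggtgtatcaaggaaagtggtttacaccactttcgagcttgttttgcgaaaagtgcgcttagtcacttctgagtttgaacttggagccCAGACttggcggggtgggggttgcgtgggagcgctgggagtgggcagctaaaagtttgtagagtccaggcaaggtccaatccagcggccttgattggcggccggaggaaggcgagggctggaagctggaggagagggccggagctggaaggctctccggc
The Tgfb1 window held 5 GC boxes, with 75.2% G and C. The Tgfbr1 window held 2 GC boxes, with 74.8% G and C, and the window of its second start, at chr4:47385966-47386215 and not printed, held no GC box and 1 CAGAC element, with 52.8% G and C. The Tgfb2 window held no GC box, but 1 TATA box, 1 E-box and 2 CAGAC elements, with 53.6% G and C. The Tgfbr2 window held 1 CAGAC element, with 58.4% G and C. Over 32851 promoter windows of the same length, 12.4% held the TATA box, 6.02% the E-box, 32.7% the GC box and 42.2% the CAGAC element. A match describes the letters in the window and does not show a site in use.

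The samples were alike in depth, with 17477268 to 17705347 counts at day 7 and 15431912 to 16574144 in adult testis. Rnf20 itself stood at 16.64 and 16.01 FPKM in the Rnf20 Flox/Flox Sertoli cells and at 10.25 and 12.58 FPKM in the Amh-Rnf20-/- Sertoli cells, a log2 fold change of -0.49 that missed the threshold (edgeR, adjusted p = 0.222). In adult testis Rnf20 stood at 4.89, 3.32 and 4.09 FPKM in the controls and at 9.16, 5.76 and 9.85 FPKM in the samples labelled knockout, a log2 fold change of 0.12 on TMM-scaled counts (edgeR, adjusted p = 0.688). The values cover the whole gene and not only its floxed part, and Rnf20 thus gave no check of the adult labels, so every adult direction below rests on the label. The adult samples labelled knockout had almost lost spermatid transcripts, with all 12 spermatid markers below the controls and a summed level of 4.51 to 120.2 FPKM against 129200 to 198400 FPKM. On TMM-scaled counts all 12 spermatocyte markers were below the controls too, and 9 were on FPKM, with sums of 7.97 to 463.0 FPKM against 5165 to 5399 FPKM, while of 11 spermatogonium markers tested 6 were below and 3 above all controls on TMM-scaled counts, and on FPKM 5 and 3, with sums of 61.74 to 489.7 FPKM against 811.1 to 922.8 FPKM. At day 7 all 19 Sertoli cell markers were in the table, with sums of 2625 to 2861 FPKM in the controls and 1813 to 2162 FPKM in the Amh-Rnf20-/- cells, while 7 of 7 peritubular myoid markers and 6 of 6 stromal fibroblast markers were higher in both Amh-Rnf20-/- samples than in both controls on either scale. The myoid sums were 2376 to 2515 FPKM in the day 7 controls and 4115 to 4291 FPKM in the Amh-Rnf20-/- cells, and the fibroblast sums 2152 to 2236 and 3306 to 3920 FPKM. In the Amh-Rnf20-/- samples both sums were above that of the Sertoli cell markers, and in the controls both were below it. Sums over lists of different genes do not measure shares of cells. The cultures labelled Sertoli held myoid and fibroblast transcripts in both groups, so a day 7 value cannot be assigned to Sertoli cells alone. Leydig cell markers summed to 156.1 to 161.5 FPKM in the day 7 controls and 213.8 to 302.3 FPKM in the Amh-Rnf20-/- cells. Spermatogonium markers summed to 216.5 to 223.7 and 153.2 to 155.1 FPKM, with 9 of 11 tested lower in both Amh-Rnf20-/- samples on TMM-scaled counts, and spermatocyte markers to 18.44 to 22.58 and 12.22 to 15.37 FPKM, with 5 of 5 tested lower on that scale. The Amh-Rnf20-/- samples also differed from each other in some Sertoli cell markers, with Defb19 at 7.07 and 87.67 FPKM and Cst12 at 10.3 and 87.86 FPKM. Other Sertoli cell markers differed less between them, such as Amh, from 3.33 to 3.87 FPKM, and Clu, from 654.9 to 741.5 FPKM. The chi-square of their counts per degree of freedom was 36.2, against 2.73 between the day 7 controls. In the adult the first sample labelled knockout stood apart, with a chi-square per degree of freedom of 92.8 and 124 to the other two, which differed by 22.4. The part of these differences in the results below was not tested beyond leaving out each library.

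Transcripts of all 10 members were detected in the day 7 cultures of both genotypes, and none passed the test between them. Tgfbr3 was the member with the largest difference, about double in the Amh-Rnf20-/- cells, and Tgfb2 and Tgfb1 stood lower there. By edgeR's quasi-likelihood test, 0 of the 10 members had an adjusted p under 0.05, as did 0.00% of the 12880 genes tested. At an unadjusted p under 0.05, 1 member was higher, where 8.52% of all genes were, and 2 were lower, where 6.99% were. The median log2 fold change was 0.091 over the members and -0.00388 over all genes tested. On TMM-scaled counts 3 members were higher in both Amh-Rnf20-/- samples than in both controls and 2 were lower, against 24.8% and 26.1% of all genes. With 2 samples a group the result depended on the tool, since DESeq2 placed Tgfbr3 and Tgfb2, and no other member, under an adjusted p of 0.05, where it called 4.51% of all genes, and limma placed none. Leaving out the first Amh-Rnf20-/- sample let edgeR call 3 members higher and 3 lower, where 20.8% of all genes were called, leaving out the second 5 and 3, where 37.7% were, and leaving out either control 0, with the lone sample assumed to vary like the other group. The study's methods give 3 individuals per group for the day 7 RNA-seq, 2 samples per group were analysed here, and the labels do not say whether they came from separate mice, so the p-values measure only the spread between these samples.

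**Figure D1:**
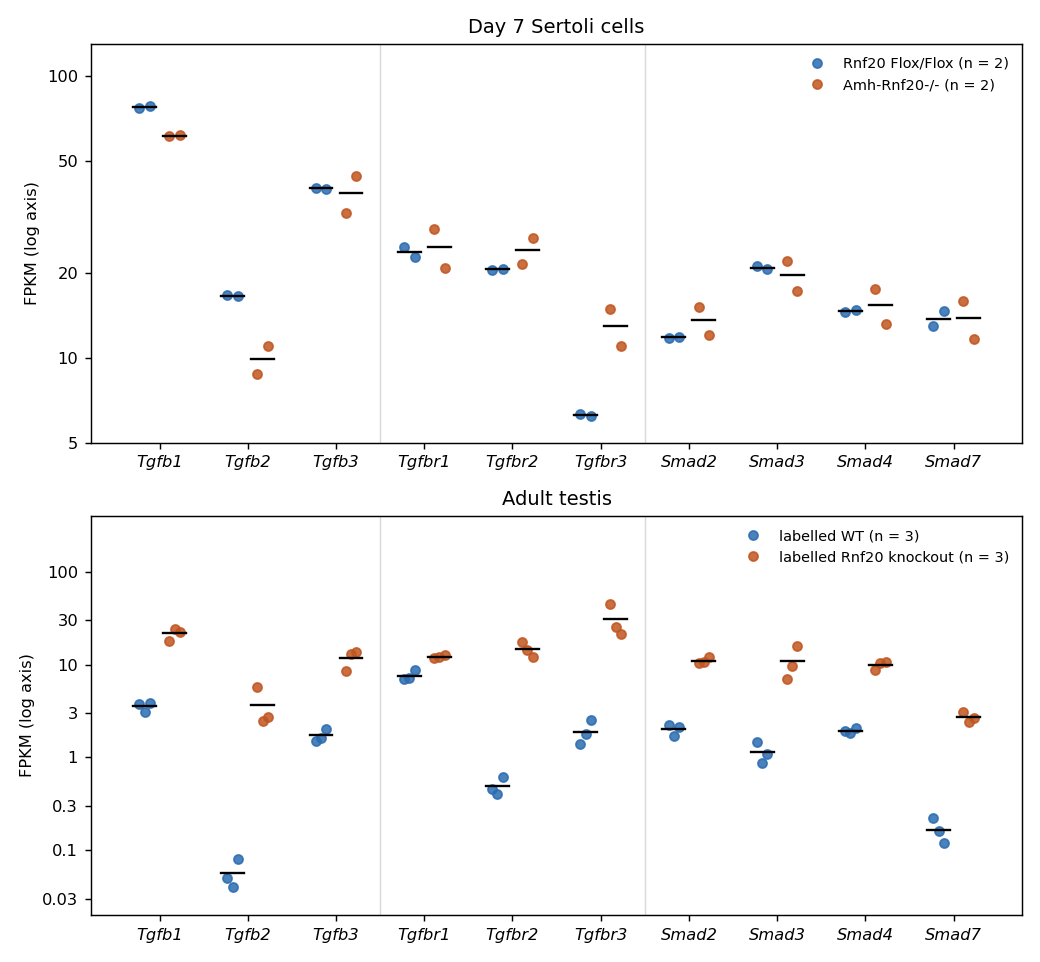
FPKM of the 10 members in each sample, on a log axis, for day 7 Sertoli cells (above) and adult testis (below). Points are samples and bars are group means; at day 7 only Tgfb1, Tgfb2, Tgfbr2, Tgfbr3 and Smad2 separate the groups, while in adult testis every member is higher in the 3 samples labelled knockout on the FPKM scale.

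Of the ligands, Tgfb1, the isoform best known from immune and stromal cells, was the most abundant member at day 7. It stood at 76.89 and 78.26 FPKM in the controls and at 61.18 and 61.64 FPKM in the Amh-Rnf20-/- cells. The groups did not overlap, and the log2 fold change was -0.30 ± 0.07 (SE, adjusted p = 0.211 by edgeR). Tgfb2, the ligand that depends most on betaglycan, stood at 16.69 and 16.57 FPKM in the controls and at 8.73 and 11.03 FPKM in the Amh-Rnf20-/- cells. Both Amh-Rnf20-/- samples were below both controls, with a log2 fold change of -0.70 ± 0.13 (SE, adjusted p = 0.165 by edgeR). DESeq2 gave the same Tgfb2 fold with an adjusted p of 0.00462, and over the 10 alternatives that kept all samples the adjusted p of Tgfb2 ran from 2.9e-08 to 0.916. Tgfb3, a ligand studied in the testis for its effect on Sertoli cell junctions, stood at 40.03 and 39.88 FPKM in the controls and at 32.80 and 44.31 FPKM in the Amh-Rnf20-/- cells. The Amh-Rnf20-/- samples lay on either side of the controls, and the log2 fold change was -0.013 (adjusted p = 0.977 by edgeR). Of the 3383 exonic bases of Tgfb3, 420 are shared with genes on the opposite strand, among them Ttll5, and whether the counting used strand is not given in the sources used here.

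Among the receptors, the gap was at Tgfbr3. It stood at 6.32 and 6.21 FPKM in the controls, the lowest of the members there, and at 14.86 and 11.01 FPKM in the Amh-Rnf20-/- cells. Both Amh-Rnf20-/- samples were above both controls, with a log2 fold change of 1.09 ± 0.17 (SE, adjusted p = 0.141 by edgeR). DESeq2 gave Tgfbr3 an adjusted p of 3.85e-05, and over the 10 alternatives that kept all samples it ran from 3.85e-05 to 0.850. Tgfbr2, the receptor that binds ligand first, stood at 20.51 and 20.71 FPKM in the controls and at 21.47 and 26.72 FPKM in the Amh-Rnf20-/- cells, with a log2 fold change of 0.26 (adjusted p = 0.393 by edgeR). The groups did not overlap, though the lower Amh-Rnf20-/- sample was close to the controls, and the log2 fold change was 0.41 without Amh-Rnf20-/- sample 1 and 0.097 without sample 2. Tgfbr1, the kinase that phosphorylates the SMADs, stood at 24.65 and 22.75 FPKM in the controls and at 28.66 and 20.87 FPKM in the Amh-Rnf20-/- cells, with a log2 fold change of 0.097 (adjusted p = 0.836 by edgeR). Here the Amh-Rnf20-/- samples enclosed the controls.

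The SMADs differed little at day 7. Smad2 stood at 11.80 and 11.89 FPKM in the controls and at 15.13 and 12.02 FPKM in the Amh-Rnf20-/- cells, with a log2 fold change of 0.24 (adjusted p = 0.460 by edgeR). Smad3 stood at 21.13 and 20.71 FPKM against 22.13 and 17.25 FPKM, with a log2 fold change of -0.011 (adjusted p = 0.980 by edgeR). For Smad2, the transducer that shares its activating receptor with Smad3, the groups did not overlap, with a log2 fold change of 0.064 without Amh-Rnf20-/- sample 1 and 0.40 without sample 2, whereas for Smad3 they did. Smad4, the partner of both, stood at 14.54 and 14.82 FPKM against 17.61 and 13.23 FPKM, with a log2 fold change of 0.11 (adjusted p = 0.778 by edgeR). Smad7, the inhibitor, stood at 12.93 and 14.65 FPKM against 15.97 and 11.68 FPKM, with a log2 fold change of 0.086 (adjusted p = 0.866 by edgeR). In Tgfbr1, Tgfbr3, Smad2, Smad3, Smad4 and Smad7 the first Amh-Rnf20-/- sample was the higher of the pair, and in Tgfb1, Tgfb2, Tgfb3 and Tgfbr2 the second was.

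In order of FPKM, which is a level per length, the day 7 controls ran Tgfb1, Tgfb3, Tgfbr1, Smad3, Tgfbr2, Tgfb2, Smad4, Smad7, Smad2 and Tgfbr3. Only Smad3 and Tgfbr2, and Smad4 and Smad7, were neighbours whose samples overlapped. In the Amh-Rnf20-/- cells Tgfb1 and Tgfb3 again stood at the top, and from Tgfbr1 down to Tgfb2, now the lowest, every pair of neighbours overlapped. Tgfbr3 made up 12.4% of the summed receptor FPKM in the controls (12.3% to 12.5%) and 20.8% in the Amh-Rnf20-/- cells (18.8% to 22.9%). Tgfb2 made up 12.4% of the ligand sum in the controls and 8.96% in the Amh-Rnf20-/- cells.

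The direction of the day 7 differences, apart from that of Tgfbr3, depended on what the counts were scaled to, so they are relative values. Scaled to the Sertoli cell markers, Tgfb2 had a log2 fold change of 0.090 ± 0.73 (SE) and Tgfb1 of 0.56 ± 0.76 (SE), and Tgfbr3 had 2.02, with no member called. That scaling moved the median of all genes to 0.84. Scaled to the myoid and fibroblast markers, Tgfbr3 had a log2 fold change of 0.043, Tgfb1 of -1.32 and Tgfb2 of -1.71, in a scaling that moved the median of all genes to -1.03. Both scalings shift all genes about alike. Tgfb2 and Tgfb1 therefore stayed below the median of all genes and Tgfbr3 above it, as with TMM scaling, which is no further test. In bulk samples such as these, fewer cells of a type and less RNA per cell cannot be told apart, and the part of the myoid and fibroblast transcripts in these differences was not tested.

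In adult testis 9 of the 10 members were higher in the samples labelled knockout, from a log2 fold change of 1.49 for Smad4 to 5.05 for Tgfb2, and Tgfbr1 alone did not pass the test, though Tgfb1, Tgfb3, Smad2 and Smad4 turned negative when the counts were scaled to myoid and fibroblast markers, which moved the median of all genes to -2.29, below all 4. By edgeR's quasi-likelihood test 9 members had an adjusted p under 0.05 upwards, where 40.9% of the 15919 genes tested did, and 0 had one downwards, where 40.6% did, so that 81.5% of all genes were called in one direction or the other. With the thresholds the study used, a log2 fold change beyond 1 and an adjusted p under 0.001, the same count was 9 members upwards, against 23.0% of all genes, and 0 downwards, against 23.7%. For 9 members all 3 samples labelled knockout lay above all 3 controls on TMM-scaled counts, as for 42.4% of all genes, and no member lay below them all, as 43.1% of all genes did. The median log2 fold change was 2.13 over the members and 0.011 over all genes tested. Tgfb2 and Smad7 were under 0.5 FPKM in all 3 controls and Tgfbr2 in 2 of 3, so these 3 passed the filter on low values through the samples labelled knockout, and without that filter 9 members were still called, where 70.5% of all genes were. Without the first sample labelled knockout 9 were called higher too, where 45.0% of all genes were. The groups also differed in transcripts that mark cell types, counted here as above or below all controls on TMM-scaled counts and summed in FPKM. Stromal fibroblast markers (6 of 6 higher in every sample labelled knockout) summed to 40.5 to 53.37 FPKM in the controls and 1303 to 3390 FPKM in the samples labelled knockout, Leydig cell markers (7 of 7) to 4019 to 5618 and 63490 to 88130 FPKM, and macrophage markers (7 of 7) to 46.09 to 51.92 and 898.2 to 1194 FPKM. Endothelial cell markers (5 of 6, and 6 on FPKM) summed to 2.80 to 3.42 FPKM and 29.75 to 47.98 FPKM, peritubular myoid markers (5 of 7, and 6 on FPKM) to 343.0 to 408.9 and 462.7 to 677.3 FPKM, and Sertoli cell markers (7 of 19, and 8 on FPKM) to 1678 to 2560 and 4874 to 11950 FPKM, the lowest of which was the first sample. Of the myoid markers Actg2, a smooth muscle actin gene, went the other way, from 255.0 to 335.4 FPKM in the controls, most of their sum, to 1.67 to 3.60 FPKM in the samples labelled knockout. Of the Sertoli cell markers 2 lay below all controls, Rhox5 at 16.64 to 20.75 FPKM against 0.34 to 1.41 FPKM and Tsx at 62.32 to 109.3 FPKM against 3.82 to 37.89 FPKM. The part of these cell types in the differences below was not tested beyond the scalings given after them.

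**Figure D2:**
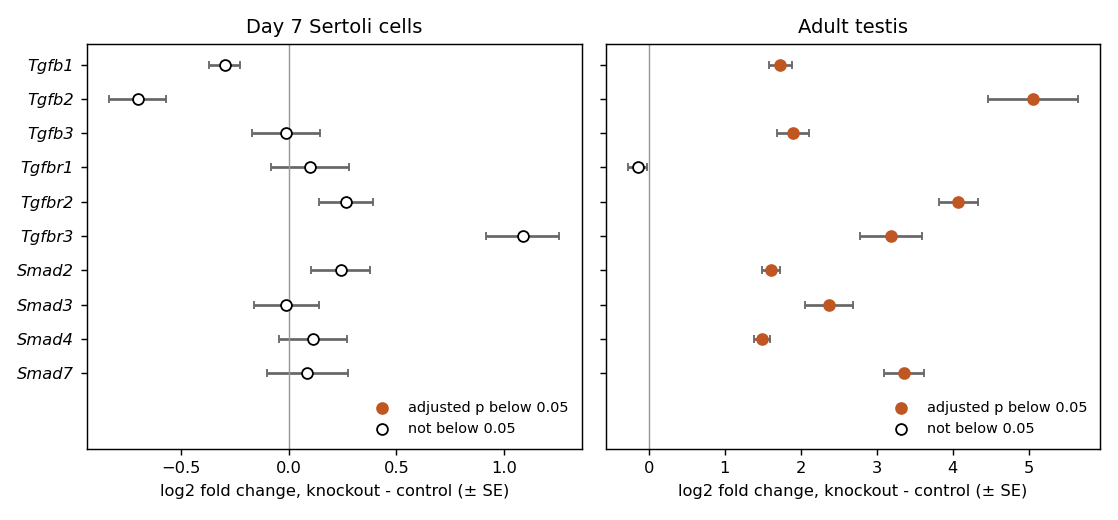
Log2 fold change of each member, Amh-Rnf20-/- or labelled knockout against control, with its SE, from edgeR on TMM-scaled counts. At day 7 no member passes an adjusted p of 0.05 and the values run from -0.70 to 1.09, while in adult testis 9 members pass, up to 5.05 for Tgfb2, and Tgfbr1 sits at -0.15 under this scaling and above 0 with total-count scaling.

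Among the ligands in adult testis, Tgfb2 was barely detected in the controls. It stood at 0.05, 0.04 and 0.08 FPKM there, from 4, 3 and 8 counts, and at 5.80, 2.46 and 2.70 FPKM in the samples labelled knockout, from 464, 200 and 207 counts. Every sample labelled knockout was far above the controls, and the first, at 5.80 FPKM, also had the highest fibroblast sum and the lowest spermatid sum. The log2 fold change of Tgfb2 was 5.05 ± 0.59 (SE, adjusted p = 0.000372 by edgeR). The ratio of the summed counts, scaled by TMM, was 33.2, with a 95% interval of 19.99 to 59.5 that covers counting error only. Tgfb1 stood at 3.81, 3.12 and 3.91 FPKM in the controls and at 18.20, 24.53 and 22.49 FPKM in the samples labelled knockout, with a log2 fold change of 1.73 ± 0.15 (SE, adjusted p = 0.000127 by edgeR). Tgfb3 stood at 1.52, 1.64 and 2.02 FPKM against 8.54, 12.93 and 13.74 FPKM, with a log2 fold change of 1.90 ± 0.21 (SE, adjusted p = 0.000313 by edgeR). For both ligands the groups were apart, and the first sample labelled knockout was the lowest of its group, the reverse of Tgfb2.

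The receptors split in adult testis. Tgfbr2 stood at 0.46, 0.40 and 0.61 FPKM in the controls and at 17.60, 14.42 and 11.99 FPKM in the samples labelled knockout, with a log2 fold change of 4.07 ± 0.26 (SE, adjusted p = 4.87e-05 by edgeR). Tgfbr3 stood at 1.40, 1.77 and 2.52 FPKM against 45.07, 25.81 and 21.61 FPKM, with a log2 fold change of 3.19 ± 0.40 (SE, adjusted p = 0.000517 by edgeR). In both genes the 3 samples labelled knockout were well above the controls, and the first was the highest. Tgfbr1 stood at 6.96, 7.15 and 8.84 FPKM in the controls, the highest member there, and at 11.84, 12.12 and 12.81 FPKM in the samples labelled knockout. Although these FPKM do not overlap, FPKM is scaled to the total of each library, and on TMM-scaled counts the groups of Tgfbr1 overlapped, with a log2 fold change of -0.15 ± 0.12 (SE, adjusted p = 0.311 by edgeR). With total-count scaling the log2 fold change of Tgfbr1 was 0.71 (adjusted p = 0.00306), below the median of all genes of 0.87, with median-ratio scaling it was -0.34 (adjusted p = 0.0488), and over the 10 alternatives the adjusted p ran from 0.000227 to 0.750. A scaling shifts all genes about alike, so the sign of Tgfbr1 follows the scaling and its direction is not settled. It lay slightly below the median of all genes with TMM (0.011), total-count and median-ratio scaling (-0.19). With TMM it lay below every other member, an order that the other scalings repeat and do not test.

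Among the SMADs, Smad2 stood at 2.21, 1.72 and 2.11 FPKM in the adult controls and at 10.48, 10.67 and 12.15 FPKM in the samples labelled knockout, with a log2 fold change of 1.61 ± 0.12 (SE, adjusted p = 6.88e-05 by edgeR). Smad3 stood at 1.45, 0.87 and 1.09 FPKM against 7.03, 9.68 and 15.84 FPKM, with a log2 fold change of 2.37 ± 0.32 (SE, adjusted p = 0.000639 by edgeR). Both receptor-regulated SMADs separated the groups, and Smad3 varied more among the samples labelled knockout. Smad4 stood at 1.95, 1.83 and 2.07 FPKM against 8.75, 10.47 and 10.62 FPKM, with a log2 fold change of 1.49 ± 0.11 (SE, adjusted p = 6.74e-05 by edgeR). Smad7, the inhibitory SMAD, stood at 0.22, 0.16 and 0.12 FPKM in the controls, from 11, 9 and 7 counts, and at 3.07, 2.43 and 2.64 FPKM in the samples labelled knockout, from 167, 165 and 157 counts. Its log2 fold change was 3.36 ± 0.27 (SE, adjusted p = 8.71e-05 by edgeR), and the ratio of the summed counts was 10.3, with a 95% interval of 7.02 to 15.9 for counting error. The groups did not overlap for either Smad4 or Smad7.

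In order of FPKM, the adult controls ran Tgfbr1, Tgfb1, Smad2, Smad4, Tgfbr3, Tgfb3, Smad3, Tgfbr2, Smad7 and Tgfb2, and neighbours overlapped from Smad2 to Tgfb3. In the samples labelled knockout Tgfbr3 and Tgfb1 stood at the top, with overlapping values, Tgfbr2, Tgfbr1, Tgfb3, Smad2, Smad3 and Smad4 overlapped one after the other, and Tgfb2 and Smad7 overlapped at the bottom. Tgfbr1 made up 76.5% of the summed receptor FPKM in the controls (73.9% to 78.9%) and 22.2% in the samples labelled knockout (15.9% to 27.6%). Tgfbr3 made up 18.6% in the controls and 52.1% in the samples labelled knockout (46.6% to 60.5%), and Tgfbr2 4.87% and 25.7%. Tgfbr1 had the largest share in every control, and Tgfbr3 had it in every sample labelled knockout.

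Ratios between members were also taken within each sample, where a factor common to the sample cancels apart from the small constant added. The log2 ratio of Tgfbr2 to Tgfbr1, on FPKM with 0.1 added, was -3.72 ± 0.117 (SD, n = 3) in the adult controls and 0.24 ± 0.331 (SD, n = 3) in the samples labelled knockout, and the groups did not overlap (exact two-sided permutation test, p = 0.1, adjusted over the 12 ratios tested 0.3). This p is the smallest that 3 samples against 3 can give, so no adult ratio could pass. The ratio of Tgfb2 to Tgfb1 was higher by 1.93 on the log2 scale in the samples labelled knockout, that of Smad3 to Smad2 higher by 0.68 and that of Tgfbr3 to Tgfbr2 lower, at -0.73, each with the groups apart and the same p. For Smad3 to Smad2 the nearest samples of the groups were at -0.5756 and -0.5694. With 1 added in place of 0.1 the difference for Tgfb2 to Tgfb1 was -0.23 and that for Tgfbr3 to Tgfbr2 was 0.025, and that for Smad3 to Smad2 was 0.41, with the groups no longer apart. Of the fits that left out 1 library, Smad3 to Smad2 was lowest, at 0.44, without the third sample labelled knockout. With 1 added, Tgfbr2 to Tgfbr1 kept a difference of 2.76. Tgfb3 to Tgfb1 differed by 0.12 and Smad7 to Smad3 by 0.32, with overlapping groups, and both turned with 1 added, to -0.093 and -0.74. Without the first control Tgfb3 to Tgfb1 differed by 0.0010, and without the first sample labelled knockout Smad7 to Smad3 differed by -0.042. At day 7, where 2 samples against 2 cannot give a p under 0.3333, Tgfbr3 to Tgfbr2 differed by 0.80, Tgfb2 to Tgfb1 by -0.42, Tgfb3 to Tgfb1 by 0.27 and Smad3 to Smad2 by -0.28, each with the groups apart. Leaving out 1 library at a time gave 0.43 to 1.17, -0.58 to -0.26, and 0.058 to 0.48 for the first 3 of these, the outer values without one or the other Amh-Rnf20-/- sample. Tgfbr2 to Tgfbr1 differed by 0.17 and Smad7 to Smad3 by 0.087 at day 7, with overlapping groups.

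**Figure D3:**
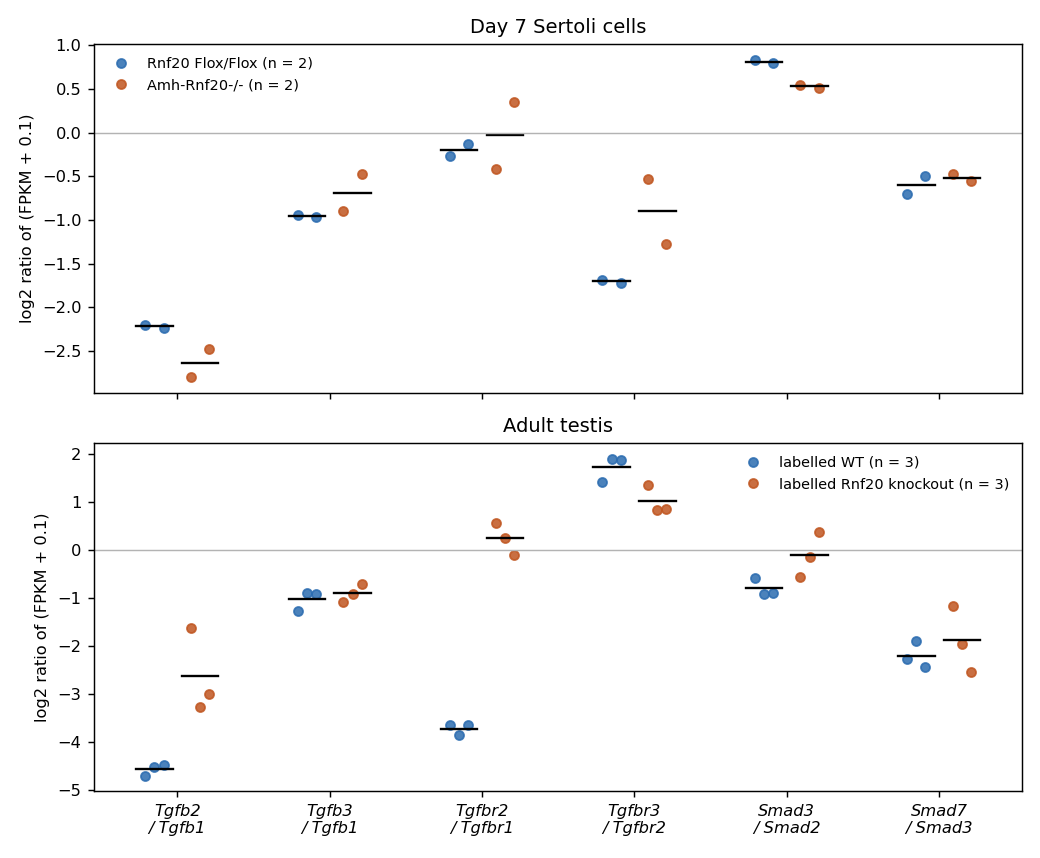
Log2 ratio of 2 members within each sample, on FPKM with 0.1 added, for day 7 Sertoli cells (above) and adult testis (below). Points are samples and bars are group means; in adult testis the Tgfbr2 to Tgfbr1 ratio is near -3.72 in the controls and 0.24 in the samples labelled knockout.

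Scaling the adult counts to markers of one cell type changed which members were called. Each factor was the mean log2 level of all tested markers listed, those that went the other way included. Among them were Actg2, with a log2 fold change of -7.73 under TMM, and, for the Sertoli cell markers, Rhox5 at -5.57 and Tsx at -2.79. The weight of these genes in the calls below was not tested. Scaled to the Sertoli cell markers, 5 members were called higher, Tgfb2 at 5.29, Tgfbr2 at 4.08, Tgfbr3 at 3.33, Smad7 at 3.26 and Smad3 at 1.97 on the log2 scale, where 21.1% of all genes were called higher and 30.2% lower. Tgfb1 at 1.48, Tgfb3 at 1.53, Smad2 at 1.44 and Smad4 at 1.26 did not pass under that scaling, which widened the SE of every member. Scaled to the myoid and fibroblast markers, which moved the median of all genes to -2.29, 3 members were called higher, Tgfb2 at 2.60, Tgfbr2 at 1.72 and Smad7 at 1.06. Tgfbr3 at 0.75 and Smad3 at 0.11 did not pass there, Smad2 at -0.70, Tgfb1 at -0.54 and Tgfb3 at -0.37 had turned and did not pass, and Smad4 at -0.80 and Tgfbr1 at -2.46 were called lower. Of all genes 8.21% were called higher and 70.0% lower under that scaling, and of the members only Tgfbr1 lay below the median of all genes. Tgfb2, Tgfbr2 and Smad7 were called higher under each of the 4 scalings drawn. They are also the members with the largest log2 fold changes under TMM and the lowest levels in the controls. All 3 passed the filter on low values through the samples labelled knockout. Since each scaling shifts all genes about alike, their calls repeat the TMM result and are no further test of it.

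**Figure D4:**
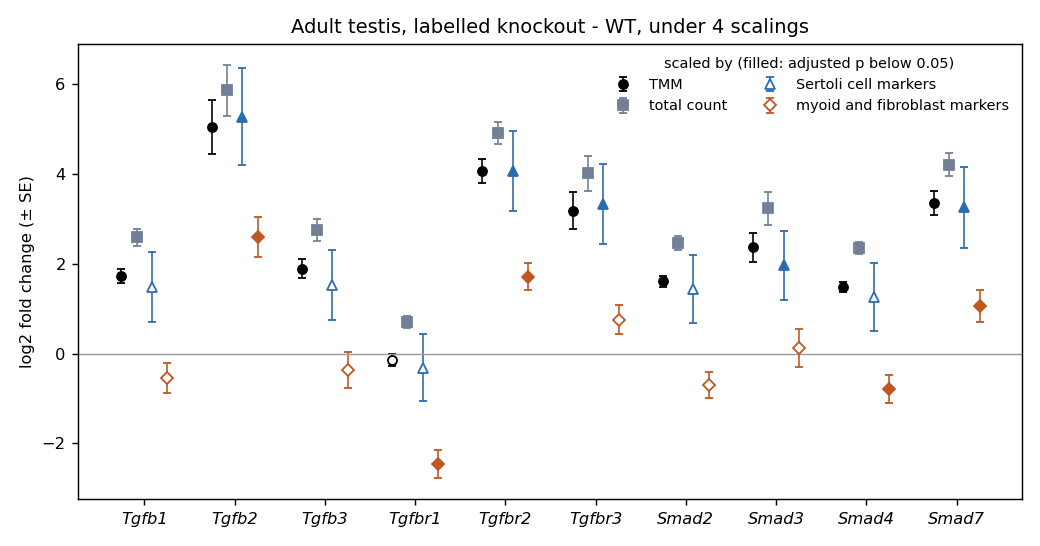
Adult log2 fold change of each member, with its SE, under TMM, total-count, Sertoli cell marker and myoid and fibroblast marker scaling; filled symbols have an adjusted p under 0.05. Tgfb2, Tgfbr2 and Smad7, the members with the largest changes under TMM, stay above 0 and filled throughout. Tgfb1, Tgfb3, Smad2 and Smad4 fall below 0 when scaled to the myoid and fibroblast markers. Each scaling shifts all genes about alike, so the panels are not separate tests.

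A further 39 genes of the pathway were listed by role, of which 37 were tested at day 7 and 38 in adult testis. At day 7 none passed the adjusted threshold by edgeR, 19 had an unadjusted p under 0.05, as did 15.5% of all genes, and DESeq2 called 7 higher and 1 lower, where it called 4.51% of all genes. The smallest p belonged to Fn1, the fibronectin gene and a matrix target of the pathway, at 161.0 and 157.8 FPKM in the controls and 285.2 and 264.9 FPKM in the Amh-Rnf20-/- cells, with a log2 fold change of 0.82 ± 0.08 (SE, adjusted p = 0.119 by edgeR). Ltbp4, which encodes a latent TGF-beta binding protein, followed at 23.79 and 25.09 FPKM against 40.41 and 37.02 FPKM (log2 fold change 0.71, adjusted p = 0.132 by edgeR). Tgfb1i1, which encodes the TGF-beta-inducible adaptor HIC-5, followed at 103.1 and 104.9 FPKM against 134.9 and 130.8 FPKM (log2 fold change 0.42, adjusted p = 0.159 by edgeR). In all 3 the groups were apart, and all 3 turned negative when scaled to the myoid and fibroblast markers, to -0.21, -0.32 and -0.61 on the log2 scale, all above the median of all genes there.

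In adult testis 25 of the 38 pathway genes tested were called higher and 6 lower, against 40.9% and 40.6% of all genes, and 6 higher and 19 lower when scaled to the myoid and fibroblast markers, against 8.21% and 70.0%. Without the filter on low values 25 were called higher and 5 lower, against 34.7% and 35.8%. With TMM scaling all 10 tested genes of latency and activation were called higher, though Ltbp2, Thbs1, Itgav, Itgb8 and Lrrc32 were under 0.5 FPKM in every control and passed the filter through the samples labelled knockout. Ltbp4 stood at 1.79 to 2.26 FPKM in the controls and 42.03 to 81.22 FPKM in the samples labelled knockout (log2 fold change 3.88), and Ltbp3, of the same family, at 0.62 to 0.95 and 12.78 to 39.25 FPKM (log2 fold change 4.003, and 3.35 without the first sample labelled knockout). Furin, the protease that cleaves the ligand precursors, had a log2 fold change of 3.40, from 1.13 to 1.57 FPKM in the controls to 23.71 to 28.49 FPKM. Itgb8, an integrin subunit that releases latent ligand, had 0, 2 and 1 counts in the controls against 31, 38 and 24 counts in the other group, a ratio of 17.7 with a 95% counting interval of 5.87 to 87.4. Its log2 fold change was 4.02, and it was 3.45 without the first control and 4.95 without the second. Scaled to the myoid and fibroblast markers Itgb8 had 1.80 (adjusted p = 0.0818 by edgeR), above the median of all genes, and was not called. Acvrl1, a related type I receptor best known from endothelium, had a log2 fold change of 4.26 from 0.43, 0.40 and 0.33 FPKM in the controls, and Dab2, an adaptor between receptors and SMADs, of 3.76. Acvrl1 and Nedd4l, a ubiquitin ligase gene at 0.31, 0.18 and 0.25 FPKM in the controls and called higher, also passed the filter only through the samples labelled knockout. Pmepa1, a feedback target of the pathway, at 0.48, 0.47 and 0.62 FPKM, and Traf6, of the TAK1 branch, at 0.50, 0.48 and 0.50 FPKM in the controls, were called higher and needed samples labelled knockout to pass it.

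The 6 genes called lower in adult testis belonged to the inhibitors, adaptors and nuclear partners. Foxh1, a DNA-binding partner of SMAD2, stood at 7.63, 6.95 and 7.58 FPKM in the controls and at 0.00, 0.80 and 1.01 FPKM in the samples labelled knockout (log2 fold change -4.72, and -4.03 without the first of these, adjusted p = 0.00249 by edgeR with all samples). Ppm1a, a phosphatase that acts on SMAD2 and SMAD3, stood at 93.88 to 111.1 FPKM against 26.94 to 37.19 FPKM (log2 fold change -2.38). The ubiquitin ligase genes Smurf1 and Smurf2, whose products act with SMAD7 on the receptors, had log2 fold changes of -1.61 and -1.16. Fkbp1a, whose product binds TGFBR1, had -1.14, on FPKM that overlapped between the groups. Scaled to Sertoli cell markers none of these 3 passed, and with total-count scaling Smurf1 had -0.75 and was still called, while Smurf2 at -0.30 and Fkbp1a at -0.26 were not. Trim33, a ubiquitin ligase of SMAD4, had -0.45 (adjusted p = 0.0450), a call that was lost when any 1 library was left out and that became 0.41 with total-count scaling, below the median of all genes of 0.87. Foxh1 passed the filter through the controls, which are rich in germ cell transcripts, and the part of the lower spermatid and spermatocyte transcripts in these 6 differences was not tested.

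**Figure D5:**
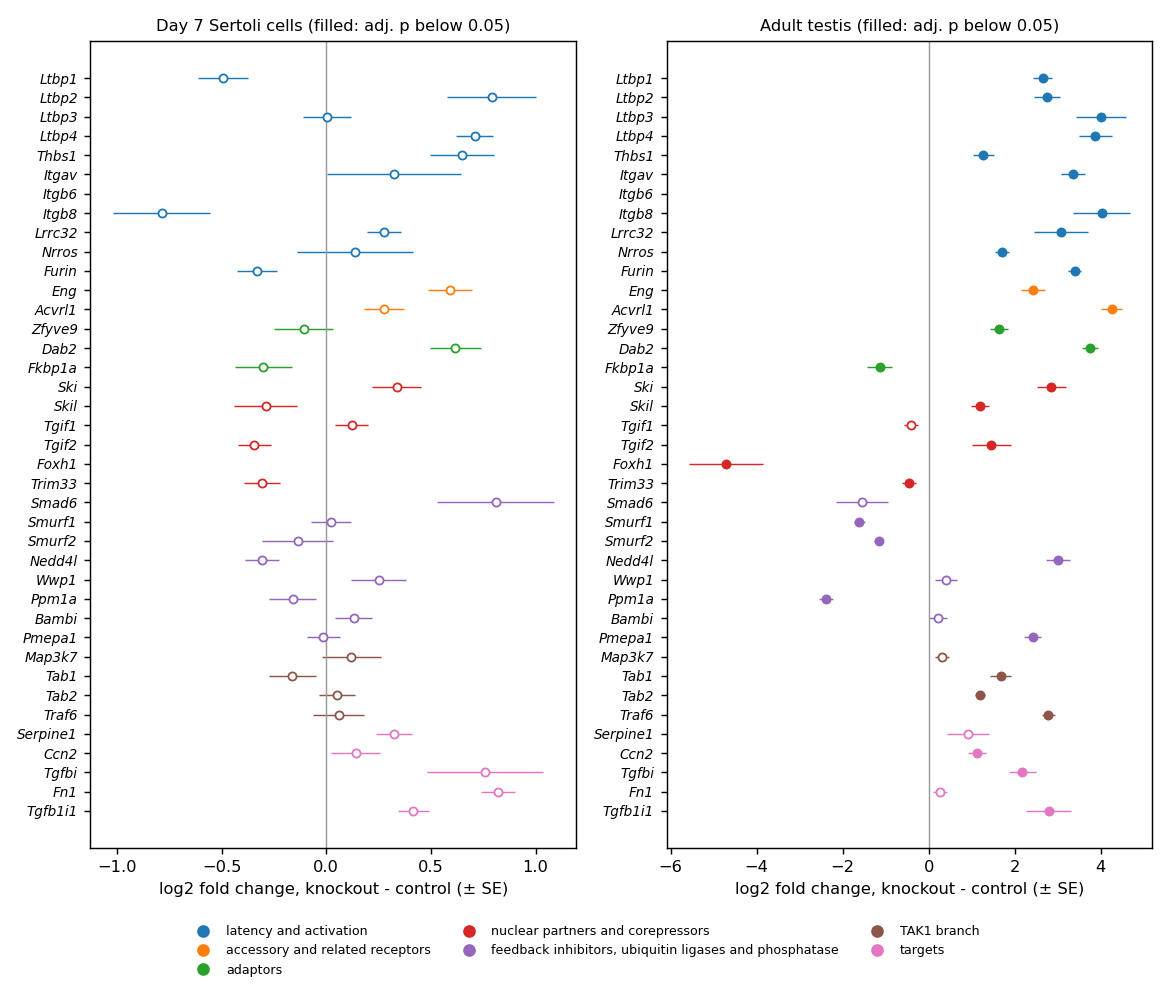
Log2 fold change, with its SE, of the 39 other pathway genes by role at day 7 and in adult testis, from edgeR; filled points have an adjusted p under 0.05 and a gene without a point was not tested. No day 7 point is filled, and in adult testis every tested gene of latency and activation lies above 0, while, under TMM scaling, Foxh1, Ppm1a, Smurf1, Smurf2, Fkbp1a and Trim33 are filled below 0.

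The genes most like the 2 members with the largest change were named by Pearson's r over all 10 samples, on log2 FPKM with 0.1 added and centred within each table, among 12378 genes tested in both tables. For Tgfbr3 these were Tcf7l1, Tgfbi, a matrix gene named for its induction by TGF-beta, and Hoxd4, with r of 0.998, 0.998 and 0.997. For Tgfb2 they were Pkp2 and Wnt4, with r of 0.999 and 0.998, and Trmu, with r of 0.9975. The points share libraries, and the adult difference between groups weighs most in each r.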

How the data were processed

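RNA-seq values of 4 samples of Sertoli cells at day 7 and of 6 samples of adult testis were analysed, each table on its own. The submitters' processing notes name HISAT, Bowtie2 and the build GRCm38.p6, and the study's methods name RSEM; versions and strand are not given in the sources used here. The authors deposited an estimated count for each gene, not normalized, of which 10.68% to 13.17% per sample were not whole. They also deposited FPKM, which correct for gene length and sequencing depth. The deposited TPM served only as an alternative for the ratios. Counts were rounded and tested with edgeR 4.0.16 (quasi-likelihood, TMM scaling, Benjamini-Hochberg adjustment over all genes tested) under R 4.3.3. The test took genes that reached 0.5 FPKM in at least as many samples as the smaller group had, which left 12880 of 17816 genes (day 7) and 15919 of 20007 (adult). Each SE is the fitted log2 fold change over the square root of its F statistic. TMM factors were 0.984 to 1.02 at day 7, and 0.710 to 0.761 in the adult controls and 1.27 to 1.42 in the samples labelled knockout. Ratios used log2(FPKM + 0.1) and exact permutation tests (scipy 1.17.1).

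The members and all lists were chosen with earlier results of these data known. The text names all members, Rnf20, and of the other pathway genes the up to 6 largest rises and 6 largest falls among those called, or the 3 with the smallest p where none was called; Ltbp2, Thbs1, Itgav, Lrrc32, Nedd4l, Pmepa1, Traf6 and the marker genes were named besides, after their values were seen. Scripts were tested on simulated data. Alternatives covered the filter, scaling, DESeq2 1.42.0, limma 3.58.1, the replicate block, each library left out, the thresholds, the pseudocount and TPM. No 2 libraries of the same group were duplicates within sampling noise, and pairs from different groups were not compared. Promoter sequences are from RefSeq on GRCm38.p6, and protein sequences were not used here.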

Additional observations from a re-analysis of the deposited data

Results flagged for a closer look

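The 2 ligands Tgfb1 and Tgfb2 had opposite directions in the 2 tables. Tgfb1 had a log2 fold change of -0.30 in day 7 Sertoli cells and of 1.73 in adult testis, and Tgfb2 of -0.70 and of 5.05. In both genes every Amh-Rnf20-/- sample lay below the controls at day 7 and every sample labelled knockout lay above them in the adult. Neither ligand passed at day 7 by edgeR (adjusted p = 0.211 and 0.165). The signs depended on the scaling. Scaled to Sertoli cell markers, which moved the median of all genes to 0.84 at day 7 and -0.18 in the adult, Tgfb1 had 0.56 and 1.48 and Tgfb2 0.090 and 5.29. Scaled to myoid and fibroblast markers, which moved that median to -1.03 and -2.29, Tgfb1 had -1.32 and -0.54 and Tgfb2 -1.71 and 2.60. Relative to the median, both ligands lay below it at day 7 and above it in the adult under both scalings, as with TMM. Since each scaling shifts all genes about alike, this repeats the TMM result and is no further test of it. The difference between the tables was not tested, since they hold different material and were made separately.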

How the results depend on the processing

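The choice of scaling moved these results more than the filter on low values did, and depth limits the low adult controls, such as those of Tgfb2, Smad7, Itgb8 and Lrrc32. Median-ratio and total-count scaling moved the adult median of all genes to -0.19 and 0.87, from 0.011. The cause of the changes below was not tested, except that leaving out a library leaves fewer samples and that the lone sample is then assumed to vary like the other group. In adult testis 9 members were called higher under both other filters, DESeq2, median-ratio scaling, the study's thresholds and with each library left out, and 10 with total-count scaling and in both limma fits, where 53.5% to 54.1% of all genes were called higher, but 5 when scaled to Sertoli cell markers and 3 when scaled to myoid and fibroblast markers, where 21.1% and 8.21% of all genes were called higher. Under the last, 2 members were called lower, and 6 other pathway genes were called higher and 19 lower, where 70% of all genes were called lower. That scaling gave Smad2 -0.70, Smad4 -0.80, Tgfb1 -0.54, Tgfb3 -0.37 and Rnf20 -2.25. Median-ratio scaling and DESeq2 each called 1 member, Tgfbr1, lower, where 43.5% and 44.2% of all genes were, and gave Rnf20 -0.075. Tgfbr1 was 0.71 with total-count scaling and 0.68 and 0.62 in limma with pseudocounts of 0.1 and 1, where Trim33 was 0.41, 0.39 and 0.34. The other pathway genes called lower were 3 with total-count scaling (30% of all genes), in both limma fits (30.7% and 31.2%) and at the study's thresholds (23.7%). They were 2 when scaled to Sertoli cell markers (30.2%). With a pseudocount of 1 the adult ratio differences were -0.23 for Tgfb2 to Tgfb1, -0.093 for Tgfb3 to Tgfb1, 0.025 for Tgfbr3 to Tgfbr2 and -0.74 for Smad7 to Smad3. Leaving out each library gave -0.042 to 0.64 for adult Smad7 to Smad3, and at day 7 -0.22 to 0.55 for Tgfbr2 to Tgfbr1 and -0.017 to 0.19 for Smad7 to Smad3.

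At day 7 DESeq2 called 581 genes, and of the members 1 higher and 1 lower, and of the other pathway genes 7 higher and 1 lower. Scaled to myoid and fibroblast markers, 9 members and 29 other pathway genes were called lower, where 88.1% of all genes were called in either direction, with Smad2 -0.80, Smad4 -0.93, Smad7 -0.96, Tgfbr1 -0.95, Tgfbr2 -0.75, Fn1 -0.21, Ltbp4 -0.32 and Tgfb1i1 -0.61. Scaled to Sertoli cell markers, Smad3 was 0.91, Tgfb1 0.56, Tgfb2 0.090, Tgfb3 0.76 and Rnf20 0.32. Smad7 was -0.011 and -0.0094 in the limma fits with pseudocounts of 0.1 and 1. Leaving out each library called 0 to 5 members higher and 0 to 3 lower, and 0 to 16 other pathway genes higher and 0 to 10 lower. Without Amh-Rnf20-/- sample 1 there were 3 members higher and 3 lower, without Amh-Rnf20-/- sample 2 there were 5 and 3, and without either control 0 and 0. Each of these fits leaves a lone sample in a group, so the counts are no evidence of a change particular to the listed genes. The share of all genes called also rose when either Amh-Rnf20-/- sample was left out, as given with the day 7 results. The log2 fold changes in the fits that left out a library were -0.22 to 0.17 for Smad3, -0.11 to 0.30 for Smad4, -0.17 to 0.30 for Smad7, -0.25 to 0.19 for Tgfb3 and -0.16 to 0.31 for Tgfbr1.

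Same-numbered samples did not deviate together (r of 0.0383 at day 7 and of 0.0156 to 0.0246 in the adult), so the numbers give no pairing. With the replicate block 9 adult members were called higher and 0 lower, 24 other pathway genes higher and 6 lower, and 0 at day 7. The block left 12209 adult genes called, against 12969 without it.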
